A study of Oryza sativa with 8 samples.

Results

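A set of 37 rows of the gene count table combined a very high level in drought with a strong excess over normal watering in wild type rice seedlings. A row was taken when its mean in drought was at least 1000 CPM (a row's counts divided by the library total and multiplied by 1000000) and at least 4 times its mean under normal watering. Of 59903 rows in the table, 62 reached 1000 CPM in drought, and 37 of these also met the fold. All seedlings were wild type plants of the rice variety MH63, grown with ample water for 14 days before the conditions diverged. Watering of the drought plants then stopped for 15 days, and relative soil water was held near 5% towards the end. Recovery plants passed through the same drought and were rewatered for 4 days. Normal plants were watered throughout and were harvested together with the drought plants, so the recovery plants were 4 days older. Each condition had 2 RNA-seq libraries, each from at least 30 pooled whole seedlings, and the labels state that the treatment was run on separate batches of seedlings without saying which library belongs to which batch. Another 2 libraries, from drought-treated plants of the genotype osbzip23, were left out of the main comparisons because their rows do not correspond to the wild type rows. They entered only an alternative fit. The p-values set each difference against the spread between these pooled libraries and not between single plants.

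Seedlings that lose water close their stomata and accumulate abscisic acid, a hormone that acts through protein kinases and bZIP transcription factors on genes with matching promoter elements. Genes well known to be strongly induced by water loss in rice include late embryogenesis abundant proteins and dehydrins, which protect proteins and membranes in drying cells, lipid transfer proteins, and enzymes that make compatible solutes. Rewatering is known to reverse much of this programme. The deposited table names its rows by gene IDs only, and 0 of the IDs occurred among the 39387 rice genes of the reference used, so none of these roles can be given to a row. The IDs printed here are labels of rows. Because the osbzip23 columns of the same table do not follow the wild type rows, it is not known which columns the IDs fit, and an ID beside a wild type value does not show which gene was measured. Members are otherwise called by their rank in mean drought CPM, with member 1 the highest. Row lengths were not available, so a rank says how many counts a row took and not how many transcripts it had. Because the tissue is the whole seedling, more RNA per cell and more cells of a type cannot be told apart, and with no gene names the tissue label was not checked against marker genes.

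The 37 members took a large part of the drought libraries and little of the others. Their share of all counts was 11.5% and 12.0% in the drought libraries, 0.576% and 0.576% in recovery, and 0.507% and 0.507% under normal watering. The means were 11.7% ± 0.335 in drought, 0.576% ± 0.00012 in recovery and 0.507% ± 0.000269 in normal plants (SD, n = 2 each). The 95% Wilson interval of a single library's share reached at most 0.00972 percentage points to either side in drought, well under the SD there. In recovery and normal libraries it reached 0.0024 and 0.00228 points, more than the SD between the replicates, and all these intervals cover counting error only. The drought and normal shares follow from the way the rows were chosen and are a description. The recovery libraries played no part in the choice, and their share lay close to the normal one, with both recovery libraries above both normal libraries.

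**Figure D1:**
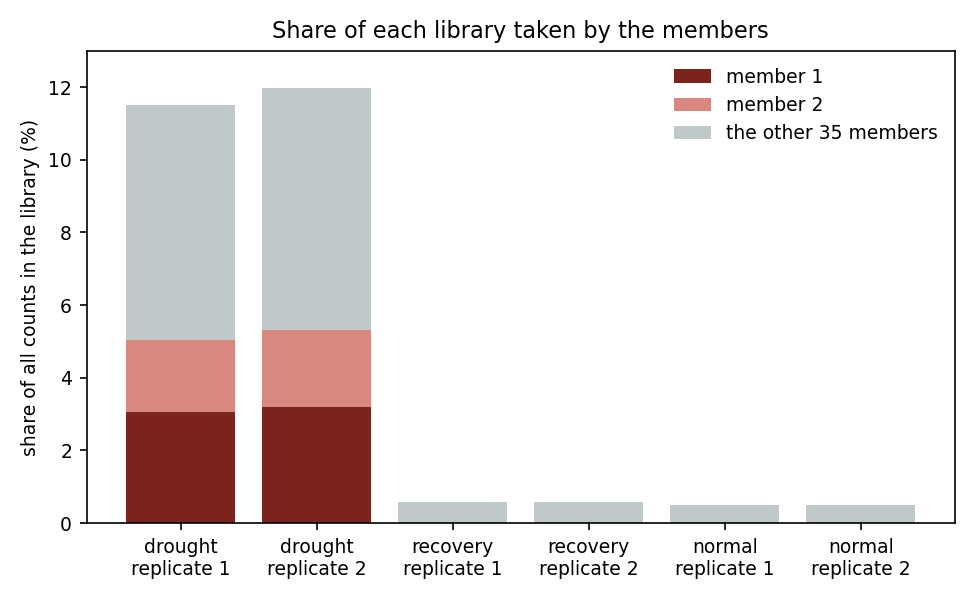
Stacked bars give the share of all counts, in percent, taken by member 1, member 2 and the other 35 members in each wild type library, with drought, recovery and normal libraries from left to right. The drought bars reach 11.5% and 12.0%, while every recovery and normal bar stays under 0.6%, where members 1 and 2 are too small to be seen.

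Most of the drought share rested on few rows. Member 1, OsMH_06G0339400, alone held 3.13% ± 0.0964 of the drought counts, and members 1 and 2 together held 5.19% ± 0.201 (SD, n = 2). Members 1 and 2 made up 44.2% ± 0.454 of all member counts in drought, 0.955% ± 0.0883 in recovery and 0.885% ± 0.0254 in normal plants. The first 10 members accounted for 68.2% ± 0.299 of the member counts in drought. Below them the levels flattened, with 5 members at 4000 CPM or more, 6 from 2000 to 4000, and 26 under 2000. The member mean ranged from 1002 to 31306 CPM in drought with a median of 1517 CPM.

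Member 1 stood at 30624 and 31988 CPM in the drought libraries, at 51.6 and 46.9 CPM in recovery, and at 44.4 and 43.05 CPM under normal watering. It was therefore not silent in watered plants, and its drought level was 716 times its normal one. Member 2, OsMH_10G0003000, stood at 19814 and 21295 CPM in drought, at 6.96 and 4.498 CPM in recovery, and at 1.33 and 0.936 CPM under normal watering. These 2 rows had the same order of magnitude in drought, while their normal levels were far apart.

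Member 7 occupied the table row directly before member 2, the only pair of members on adjacent rows, which does not show that their genes are neighbours, and the next closest pair of members was 99 rows apart. Member 7 had 2649 and 2697 CPM in drought, 1.10 and 0.792 CPM in recovery, and 0.362 and 0.160 CPM under normal watering. Both rows were thus at no more than 1.33 CPM in normal plants and among the 10 highest in drought. The counts of member 2 were 7.48 and 7.90 times those of member 7 in drought, 6.31 and 5.68 times in recovery, and 3.67 and 5.83 times under normal watering, where member 7 had only 15 and 6 counts. How reads shared between similar genes were counted is not given in the sources used here, so the division of counts between these rows is uncertain.

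**Figure D2:**
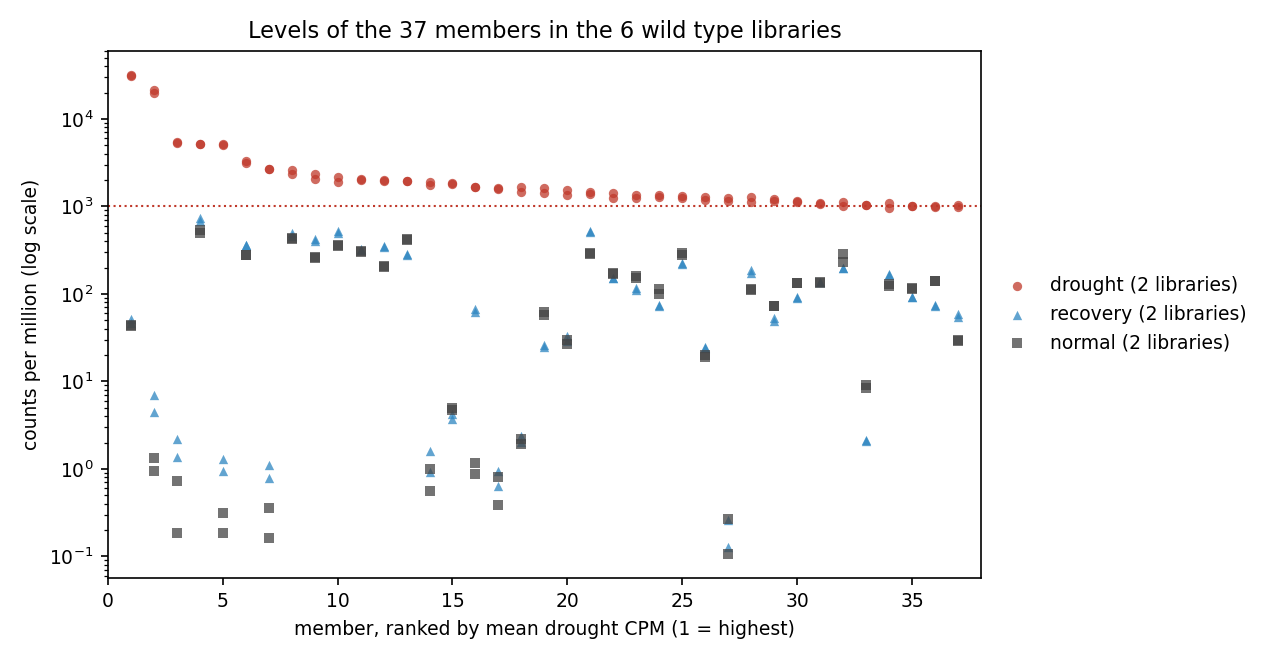
Each column is a member, ranked by mean drought CPM, and each point is a library, with CPM on a log scale and the dotted line at 1000 CPM. Drought points form a narrow band with a steep start at members 1 and 2, whereas recovery and normal points range from about 0.1 CPM to 734 CPM and lie near each other for most members. Members 2, 3, 5, 7 and 16 have recovery points clearly above their normal points, and member 33 has them below.

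Normal levels differed far more among the members than drought levels did, from 0.186 to 515.6 CPM with a median of 111.7 CPM. The rule sets a floor for drought and only an upper limit for normal, so this contrast in range is a description. In normal plants 11 of the 37 rows lay under 10 CPM, 6 lay from 10 to 100 CPM, and 20 were at 100 CPM or more. The rows that were low in normal plants therefore carried the steepest ratios of drought to normal, 120 to 20330 with a median of 2703 over the 11 rows. The 20 rows at 100 CPM or more had ratios of 4.13 to 12.2 with a median of 8.05, and the 6 between them had ratios of 16.3 to 716. Across the 37 members, Spearman's rho was -0.0121 between normal and drought CPM, and 0.953 between normal and recovery CPM, with Pearson's r of -0.238 and 0.937 on the log2 scale. The points of these correlations are rows of the same libraries and of a chosen range of drought levels, and they serve as a description.

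Among the 11 rows under 10 CPM in normal plants, the highest ratio belonged to member 5, with 5083 and 5103 CPM in drought against 0.314 and 0.187 CPM in normal plants, or 13 and 7 counts. Member 27 had the lowest normal level, at 1154 and 1260 CPM in drought against 0.266 and 0.107 CPM, or 11 and 4 counts. Such rows were close to the limit of detection in watered plants and among the most abundant in drought. Member 3 followed the same course, with 5358 and 5462 CPM in drought against 0.725 and 0.187 CPM in normal plants. As a group these 11 rows took 4.45% ± 0.148 of the drought counts, 0.00843% ± 3.49e-05 of the recovery counts, and 0.00203% ± 7.83e-05 of the normal counts (SD, n = 2 each). Member 16 alone made most of the gap between recovery and normal, and without it, a step added after seeing the data, the other 10 rows held 0.00201% ± 0.000292 in recovery and 0.00193% ± 5.7e-05 in normal plants.

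At the other end, member 4 had the highest normal level of all, with 5178 and 5180 CPM in drought against 493 and 538 CPM in normal plants. Member 8 came next, with 2355 and 2609 CPM in drought against 433 and 419 CPM under normal watering. These rows were already well expressed in watered plants and gained about a single order of magnitude or less. The 20 rows at 100 CPM or more in normal plants took 3.52% ± 0.0603 of the drought counts, 0.544% ± 0.00146 of the recovery counts and 0.48% ± 0.00101 of the normal counts (SD, n = 2 each). They supplied most member counts in recovery and normal plants, but less of the drought share than the 11 low rows.

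Rows just inside and just outside the rule were close in level. The lowest member in drought, member 37, had 977 and 1027 CPM in drought and 29.4 and 29.1 CPM under normal watering. A row just outside had a drought mean of 981 CPM and a normal mean of 17.7 CPM. At the fold limit, member 32 had a ratio of 4.13, with a drought mean of 1062 and a normal mean of 257 CPM, and the nearest row outside had a ratio of 3.64, with 1063 and 292 CPM. The 2 drought libraries gave similar member levels, with ratios of replicate 2 to replicate 1 between 0.881 and 1.17 and a median of 1.03. In 26 of 37 members replicate 2 was the higher, compared with 13 of the 25 rows that reached 1000 CPM in drought without meeting the fold, where the median ratio was 1.004.

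Recovery against drought shows how far the members came down within 4 days of rewatering. Every member was lower in both recovery libraries than in both drought libraries, as were 47.7% of all tested rows, and no member stayed at 1000 CPM, the highest recovery mean being 706 CPM. Recovery levels were 0.0162% to 36.4% of the drought levels with a median of 7.30%, under 10% for 22 members and under 1% for 11. All 37 were called lower in recovery at an adjusted p under 0.05 (edgeR quasi-likelihood test over 22898 rows in the 6 wild type libraries), where 37.3% of all tested rows were. Against normal watering, all 37 were called higher in drought, as were 35.3% of tested rows. The drought libraries chose the members by their high level, so nothing is read from these counts.

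Expressed as the part of the drought excess over normal that was gone in recovery, the median member stood at 99.98%. For 23 members the part was between 90% and 100%, and for 13 members it exceeded 100%. In those 13 the recovery mean lay below the normal mean in plain CPM. With the trimmed mean scaling (TMM) of the test, 12 members lay below normal, and 10 were called lower. The only member under 90% was member 21, at 79.7%, with 522 and 513 CPM in recovery against 1382 and 1462 CPM in drought, and with 291 and 284 CPM under normal watering. Member 21 was also the row with the highest recovery level relative to drought, at 36.4%. Because this measure is set by very high drought levels, it does not resolve small differences from normal.

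Recovery against normal watering asks which members differed from plants that were never stressed. The recovery plants were also 4 days older and harvested later, so past drought, age and harvest cannot be told apart here. In this comparison 31 of 37 members were called, 21 higher and 10 lower in recovery (edgeR quasi-likelihood test, adjusted p under 0.05). Over all 22898 tested rows, 34.8% were called, 18.1% higher and 16.7% lower. Most of the differences were small. In plain CPM 30 members had recovery means within 2-fold of normal, 5 were at least 2-fold above it, and 2 were at most 0.5 times it, while on the TMM scale 7 members were called higher by at least 2-fold, members 21 and 37 being the additional ones. Members had a median log2 fold change of 0.35, and all tested rows one of 0.00. Calls depend on counts as well as on size, and rows with higher normal levels were called more often in the whole table. Of 20 members at 100 CPM or more in normal plants, 11 were called higher and 7 lower, where 32.7% and 30.8% of all tested rows at that level were. The 6 members from 10 to 100 CPM gave 4 higher and 2 lower, with 21.2% and 23.9% as background, and the 11 members under 10 CPM gave 6 higher and 1 lower, with 12.7% and 7.73%.

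The split between higher and lower depended on scaling. TMM, the trimmed mean scaling used here, placed recovery over normal values 0.19 above plain library size on the log2 scale. With library size scaling 17 members were called higher and 13 lower, where 2646 and 7356 of the 22898 tested rows were. The higher share of calls was thus 56.7% in place of 67.7%, and over all rows it was 26.5% in place of 52.1%. Members 11, 14, 20 and 31 lost their call, and members 15, 22 and 32 became called lower. No member was called in opposite directions by any of 3 scalings, which also included median-of-ratios factors, and 17 members were called higher and 9 lower under each of them. In plain CPM the recovery libraries lay above both normal libraries in 19 members, below both in 13, and overlapped in 5, where 21.6% and 51% of tested rows lay above and below.

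**Figure D3:**
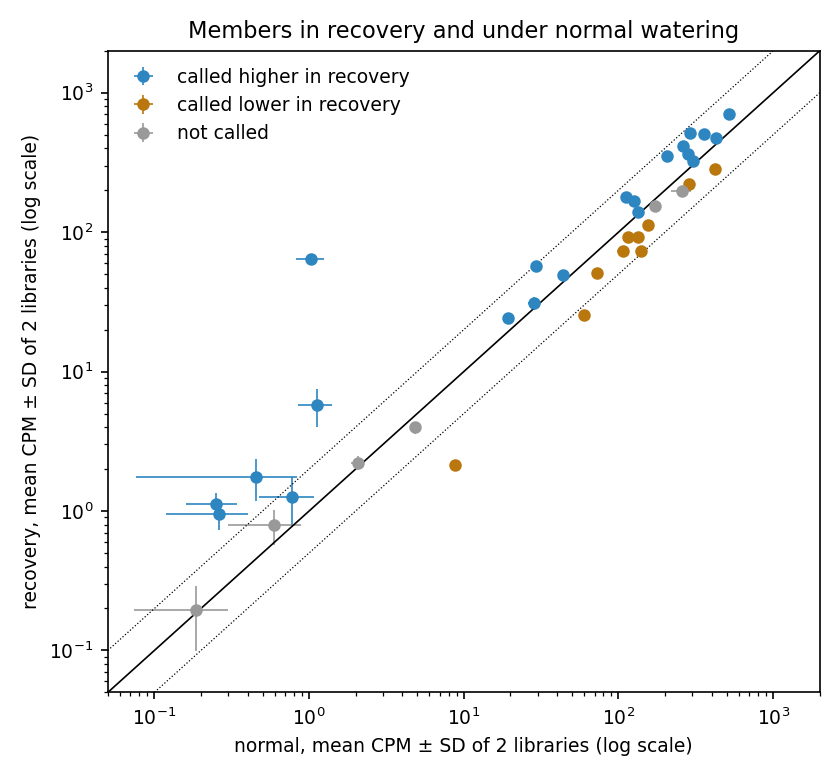
Each point is a member, with mean normal CPM on the horizontal and mean recovery CPM on the vertical axis, both log scales, bars showing the SD of 2 libraries, the solid line equality and the dotted lines 2-fold. Colours give the call at an adjusted p under 0.05. Most points hug the line over more than 3 orders of magnitude, and member 16 lies farthest above it, at 64.1 against 1.03 CPM.

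OsMH_01G0046300, member 16, had the largest fold change over normal of the 37 members. It stood at 61.8 and 66.4 CPM in recovery, at 1686 and 1652 CPM in drought, and at 1.18 and 0.882 CPM under normal watering. Its log2 fold change over normal was 6.13 ± 0.09 (SE, edgeR adjusted p = 1.08e-12), although its recovery level was 3.84% of the drought level. Every edgeR SE given here was calculated back from the test's F value and may understate the error. For member 16 the alternative tools DESeq2 and limma-voom gave an SE of 0.167 and 0.26. Of the members with a recovery mean at least 2-fold above normal in plain CPM, the other 4 were members 2, 3, 5 and 7, which were under 10 CPM in both conditions. Member 2 had a log2 fold change of 2.51 ± 0.22 (SE, edgeR adjusted p = 3.34e-06), on 265 and 176 counts in recovery against 55 and 35 counts in normal plants. For member 3 the counts were 83 and 53 in recovery against 30 and 7 in normal plants, for member 5 they were 49 and 37 against 13 and 7, and for member 7 they were 42 and 31 against 15 and 6. In each of these 4 rows both recovery libraries lay above both normal libraries, as in 21.6% of all tested rows.

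Of the 10 members that were lower in recovery, 2 fell to less than 0.5 times normal. OsMH_03G0509900, member 33, stood at 2.10 and 2.15 CPM in recovery against 8.48 and 9.04 CPM in normal plants, although it had 1051 and 1046 CPM in drought. Its log2 fold change over normal was -1.85 ± 0.09 (SE, edgeR adjusted p = 1.82e-08). OsMH_09G0081600, member 19, stood at 25.9 and 24.8 CPM in recovery against 61.5 and 57.4 CPM in normal plants, so that its log2 fold change stood at -1.04 ± 0.07 (SE, edgeR adjusted p = 4.14e-07). These rows had been far above normal in drought and were below it after rewatering. Their recovery and normal libraries did not overlap, but that was a condition for printing their labels. In plain CPM 51% of all tested rows lay below normal without overlap.

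All of members 1 to 10 were called higher in recovery than under normal watering, with log2 fold changes of 0.35 to 2.51. They were so under each of the 3 scalings. With TMM, 56.8% of all members and 18.1% of all tested rows were called higher. In the fit with the osbzip23 libraries member 1 was no longer called, with a log2 fold change of 0.36 and an edgeR adjusted p of 0.386. The rows of those libraries do not correspond to the wild type rows, so that fit cannot decide whether the call holds. Members 11 and 12 were also called higher with TMM, and among the members ranked below 12 the calls went both ways. This order was noticed in the data and is given without a test. Member 4, with 677 and 734 CPM in recovery against 493 and 538 CPM in normal plants, had the highest recovery level of all, and its log2 change over normal was 0.64 ± 0.05 (SE, edgeR adjusted p = 5.72e-07). Member 21 came next in recovery level, and its log2 change over normal was 1.04 ± 0.04 (SE, edgeR adjusted p = 6.8e-09). Member 36 was the lowest relative to normal among the rows at 100 CPM or more, with 72.7 and 74.3 CPM in recovery against 139.6 and 140.2 CPM in normal plants, and its log2 change over normal was -0.74 ± 0.04 (SE, edgeR adjusted p = 9.7e-08).

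**Figure D4:**
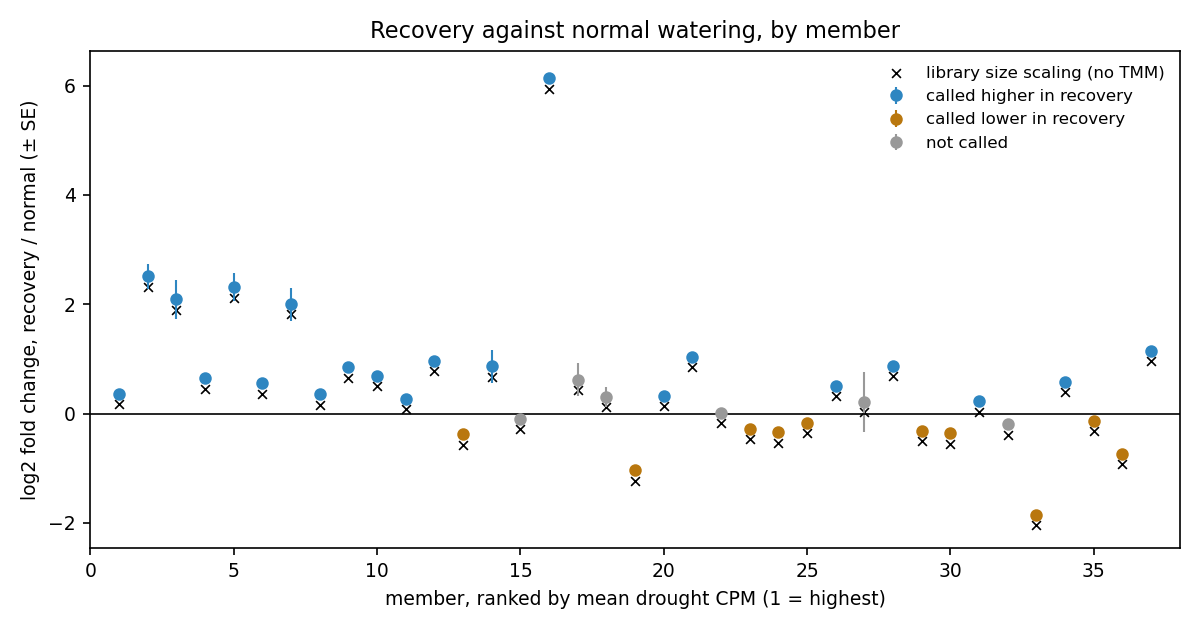
Points give the log2 fold change of recovery over normal for each member, ranked by mean drought CPM, with bars of 1 SE from the TMM-scaled fit and colours for the call. Crosses give the same value with library size scaling, about 0.19 lower. Members 1 to 10 all lie above 0 under either scaling, and members 16 and 33 mark the extremes at 6.13 and -1.85.

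The normal libraries took part in choosing the members, through the 4-fold condition, which favours rows with low normal values. The comparison was therefore repeated with 1 normal library for the choice and the other for the test, a check added after seeing the data. In it the lone normal library is assumed to vary like the other groups. Replicate 1 alone chose the same 37 rows and replicate 2 alone 36 of them. The check could therefore hardly differ from leaving out 1 normal library, and nothing is concluded from it about the 4-fold condition. Members chosen on normal replicate 1 and tested against replicate 2 gave 21 higher and 10 lower of 37, where 13.5% and 11.4% of all tested rows were called. With the roles exchanged there were 20 higher and 8 lower of 36, where 12.9% and 11.6% of rows were. A minimum absolute log2 fold change of 1 on the TMM scale left 7 members higher and 2 lower, where 1594 of all 22898 tested rows were called in either direction. Adding the osbzip23 libraries to the fit left 15 higher and 4 lower, where 1868 and 1363 of all tested rows were called higher and lower. The osbzip23 rows do not correspond to the wild type rows, so nothing is concluded from that fit.

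For comparison, 2 further sets of rows were chosen by similar rules. The 266 rows with 100 to 1000 CPM in drought and the same 4-fold condition took 8.15% ± 0.158 of the drought counts, 0.712% ± 0.00725 of the recovery counts and 0.731% ± 0.00369 of the normal counts (SD, n = 2 each). Thus 37 rows took more of the drought libraries than the 266 rows below them. Of the members 29.7% were under 10 CPM in normal plants, compared with 35.7% of the 266 rows, and the median ratio of drought to normal was 11.4 among members and 9.76 among the 266 rows. In recovery against normal, 56.8% of the members were called higher and 27% lower, with 40.6% and 21.4% among the 266 rows. The 25 rows at 1000 CPM or more in drought without the fold held 4.64% ± 0.00686 of the drought, 4.88% ± 0.00962 of the recovery and 4.71% ± 0.0547 of the normal counts, and 52% and 28% of them were called higher and lower. The median log2 fold change of recovery over normal was 0.35 for the members, 0.153 for the 266 rows and 0.14 for the 25 rows. The sets were chosen on the same libraries, and the differences between them were not tested.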

How the data were processed

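The authors deposited whole-number counts per gene ID, 1 column per sample, per the file headers, without normalization. Per the submitters' processing notes, the tools used were StringTie 2.1.7, STAR 2.7.10a and fastp 0.23.0, in no stated order, while build, annotation, strand setting and the treatment of shared reads are not given in the sources used here. The 6 wild type libraries held 37400784 to 42894245 counts. Between replicates the chi-square divided by its degrees of freedom was 4.42 to 7.08, so no pair agreed within sampling noise.

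Counts were tested with edgeR 4.0.16 in R 4.3.3 by the two-sided quasi-likelihood F-test, with TMM, the filterByExpr filter and 3 residual degrees of freedom. Adjusted p-values are Benjamini-Hochberg values over 22898 rows. The SE of an edgeR log2 fold change is its absolute value divided by the square root of F, not an estimate from the model. DESeq2 and limma-voom gave larger SE for the rows printed by label, for member 33 0.133 and 0.192 in place of 0.09. The 2 osbzip23 drought libraries were left out of the main fit because of their low correlation with wild type. Over the first 40897 rows it was r = -0.013 to -0.00974 on the log2(CPM + 1) scale. Wild type libraries correlated with each other at 0.906 to 0.998. The procedure was tested on simulated data with the same dispersion for all rows, no drought shift in composition, and changes planted only in well-counted rows. That test therefore does not cover low-count members or the choice of scaling. Members, lists and tests were chosen with earlier results of these data known. Row labels were printed for the 2 members highest in drought and, for recovery against normal, for the 2 called members with the largest log2 fold change in each direction whose libraries did not overlap. Alternatives covered scaling, DESeq2 1.42.0, limma-voom (limma 3.58.1), count filters, library choice, a replicate block and the thresholds of the rule. Shares were computed in Python 3.11.15.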

Additional observations from a re-analysis of the deposited data

Results flagged for a closer look

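The 2 osbzip23 drought libraries entered none of the main comparisons. The 37 member rows held 0.94% and 0.767% of the counts in these libraries (95% Wilson intervals 0.935% to 0.945% and 0.763% to 0.771%). Both shares lay above the 0.507% of both normal wild type libraries. In these libraries 92.5% and 89.3% of the member counts stood on the largest member row of each library, at 8695 and 6850 CPM. Without the largest row of each library the shares were 0.0704% and 0.0822%, and 14 of the 37 rows had 0 counts in both libraries. The rows of these libraries do not correspond to those of the wild type, so the values are not read as levels of the same transcripts or as an effect of the genotype.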

How the results depend on the processing

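Leaving out each library in turn gave 34 to 37 members, drought shares of 11.44% to 11.74%, recovery shares of 0.5464% to 0.5761%, normal shares of 0.4775% to 0.5071%, 19 to 21 members called higher and 8 to 11 lower in recovery against normal, and 5726 to 8586 rows called there. Every omission left all 37 members called lower in recovery than in drought and higher in drought than in normal.

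A drought minimum of 500 CPM gave 82 rows with 14.79% of the drought, 0.7658% of the recovery and 0.7174% of the normal counts. A minimum of 2000 CPM gave 11 rows with 8.217%, 0.2845% and 0.219% in that order. A fold of 2 gave shares of 13.52%, 1.274% and 1.221%, and a fold of 8 gave 10.18%, 0.2872% and 0.2288%. With TMM-scaled CPM the recovery and normal shares were 0.5631% and 0.4902%. The rule on replicate 1 alone gave 0.5464% and 0.4775%, and on replicate 2 alone 0.5632% and 0.4831%. With all 8 libraries 3231 rows were called in recovery against normal and 4 members were lower. Member 1 lost its call in that edgeR fit at an unchanged log2 fold change of 0.36 (adjusted p = 0.386). Under the other settings, DESeq2 and limma-voom included, its adjusted p was 6.36e-10 to 0.00921. The osbzip23 rows in the fit of 8 libraries do not correspond to the wild type rows, so nothing is concluded from it. A minimum absolute log2 fold change of 1 left 1594 rows called in recovery against normal, with 7 members higher and 2 lower, 10477 in recovery against drought and 9272 in drought against normal. Of the other values computed with another setting, 77 kept their size within 1.5 times or 1 SD, and no fold change of a row printed by its label changed sign.

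Equal replicate numbers did not deviate together, with correlations of deviations of -0.0227 to 0.0152, and the labels do not pair them. With the replicate block 7424 rows and 29 members were called in recovery against normal, 20 higher and 9 lower. Rows under 1 CPM rest on few counts, and 1 such member, 27, had an SE of 0.54 on the log2 scale.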

Other observations

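Taking the 37 members out of the library totals raised the CPM of every other row by a mean factor of 1.133 in drought, 1.006 in recovery and 1.005 in normal plants. The median log2 ratio of drought to normal over the other tested rows, computed on CPM with 0.5 added, was -0.0685 with the members in the totals and 0.0744 without them. For recovery over normal the median was -0.159 both ways.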
